A study of Mus musculus with 6 samples.

Results

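The main cluster of replication-dependent histone genes of the mouse was described through its H3K4me3 domains, 56 of the 16542 found in the genome. The cluster was taken as 2 stretches of mm9, chr13:21700000-22200000 (segment A, 500 kb) and chr13:23500000-23900000 (segment B, 400 kb). H3K4me3 is a histone mark of active promoters, and a domain was a stretch of 200 bp bins in which the mark reached 4 times the input in RPM, reads scaled to the size of their library, with breaks of 400 bp or less bridged and a minimum of 20 reads in the whole. A bin with fewer than 3 input reads was treated as holding 3. By this rule CD4 cells had 52 domains in the cluster of 15608 in the genome, and CD8 cells had 55 of 14871. Overlapping CD4 and CD8 domains were merged into joined domains, 23 in segment A and 33 in segment B.

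The cells were mature CD4+ and mature CD8+ T cells from the thymus of C57BL/6 mice, untreated as far as the labels say. Micrococcal nuclease released single nucleosomes, which rabbit polyclonal antibodies pulled down for H3K4me3 or for H3K36me3, a mark of transcribed gene bodies, and each cell type has an input made with no antibody. Each of the 6 groups is 1 library, which leaves every value without a replicate, and p-values are not given. The labels used here give no age or sex, no number of mice and no sorting scheme. Intervals are exact 95% intervals (Clopper-Pearson, conditional on the sum for ratios) for counting error alone, and the reads carry no molecular identifiers, so several may stem from 1 molecule.

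Replication-dependent histone genes encode the core histones H2A, H2B, H3 and H4 and the linker histone H1, which package newly made DNA, and they are transcribed mainly while a cell copies its genome. They are short, most lack introns, and their messages end in a stem-loop in place of a poly(A) tail. H3K36me3 is laid down by SETD2, which travels with elongating RNA polymerase II, so it lies over gene bodies rather than promoters and is densest toward the ends of long genes. In the thymus, immature T cell precursors divide rapidly, whereas most mature CD4+ and CD8+ cells are not dividing.

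RefSeq lists 56 histone genes on chromosome 13 of build GRCm38.p6, of which 6 encode H1, 15 H2A, 15 H2B, 9 H3 and 11 H4, with 2 pseudogenes among them. They fall into a first run of 24 genes from H2bc13 to H2bc11 and a second run of 30 genes from H4c8 to H1f1, separated by a group of Vmn1r pheromone receptor genes, and a last pair, H2bc1 and H2ac1. Between the members of the first run lie 31 tRNA genes and 3 other protein-coding genes, and between those of the second run 1 other protein-coding gene and 0 tRNA genes. Next to each other and head to head lie 10 pairs of an H2A and an H2B gene, so that 1 stretch of DNA serves as promoter in both directions. No annotation of mm9 was used here and positions of the 2 builds do not correspond, so no domain below is assigned to a gene, and the match of the 2 stretches to the histone genes rests on the coordinates of the rule. For the same reason the labelled cell types were not checked against marker genes.

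The promoters of the histone classes differ in their short elements, and 4 are shown, each from another class. Those of H2bc23 and H4c17 also bear on what a read can resolve. The table of promoters held 52 entries for 51 of the 56 genes. The letters are the 250 bases before the transcript start in RefSeq GRCm38.p6, 5′ to 3′ on the gene's strand, with the box CCAAT, the TATA box core TATAAA and the H1 box AAACACA in capitals. They were chosen after the letters of all entries were compared.
H1f2 (linker histone H1, chr13:23738557-23738806, + strand): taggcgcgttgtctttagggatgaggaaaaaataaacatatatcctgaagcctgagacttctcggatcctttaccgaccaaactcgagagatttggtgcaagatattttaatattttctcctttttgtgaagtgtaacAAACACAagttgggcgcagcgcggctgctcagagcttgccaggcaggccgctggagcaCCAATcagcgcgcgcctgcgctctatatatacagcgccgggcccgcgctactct
H2bc23 (histone H2B, chr13:21810200-21810449, - strand): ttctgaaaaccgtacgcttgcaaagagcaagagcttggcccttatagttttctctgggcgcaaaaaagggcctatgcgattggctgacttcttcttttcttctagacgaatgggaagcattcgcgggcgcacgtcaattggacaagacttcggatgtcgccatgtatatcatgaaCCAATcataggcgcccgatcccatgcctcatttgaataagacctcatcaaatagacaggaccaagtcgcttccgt
H3c10 (histone H3, chr13:21717378-21717627, + strand): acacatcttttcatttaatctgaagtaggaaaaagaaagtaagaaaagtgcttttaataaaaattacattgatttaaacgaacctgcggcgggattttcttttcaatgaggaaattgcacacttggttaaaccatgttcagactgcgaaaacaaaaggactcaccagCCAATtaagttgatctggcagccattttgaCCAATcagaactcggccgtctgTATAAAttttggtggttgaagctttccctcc
H4c17 (histone H4, chr13:21811496-21811745, + strand): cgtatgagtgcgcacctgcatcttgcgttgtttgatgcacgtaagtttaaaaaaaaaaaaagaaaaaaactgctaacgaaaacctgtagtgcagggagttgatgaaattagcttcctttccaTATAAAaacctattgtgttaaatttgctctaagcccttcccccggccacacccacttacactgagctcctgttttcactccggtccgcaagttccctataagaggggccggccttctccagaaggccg
The H1f2 promoter carries the H1 box AAACACA, an element known from H1 genes, with a CCAAT box nearer the start. Searched on the gene's strand, AAACACA stood in 5 of 6 H1 promoters and in 3.17% of all 32851 promoters of the table, and in H1f2 it began 112 bases before the start. Those of H1f3, H1f4, H1f5 and H1f6 began between 114 and 122 bases before it, so 5 of the 6 genes hold the element at nearly one distance, while H1f1 lacks it. The outermost CCAAT lay nearer the start than the H1 box in H1f2, H1f3, H1f4 and H1f6, at 51 to 65 bases, and farther out in H1f5, at 168.
CCAAT, the box bound by the factor NF-Y, was found on the gene's strand in 6 of 6 H1, 13 of 13 H2A, 15 of 15 H2B and 7 of 7 H3 promoters, but in 1 of 11 H4 promoters. Among all promoters 19.1% held it there. On both strands the shares were 84.6% of the 52 histone entries and 33.8% of all. TATAAA, the core of the TATA box, was found on either strand in 50% of the histone entries and 12.4% of all. On the gene's strand it was found in 40.4% and 7.59%. A match could lie anywhere in the 250 bases. The TATA and H1 boxes can overlap by 3 letters, which they do not in the promoters shown, and a match describes the letters only.

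Some of these promoters exist in near-identical copies, which a read of 33 bases cannot tell apart. Of the 52 entries, 10 (19.2%) shared at least 1 run of 33 bases with a promoter elsewhere, against 10.7% of all promoters, and 6 shared most of theirs. The H2bc23 promoter shown above is the same over 300 of 300 bases as that of the gene listed as H4bc24, an H2B gene by its older symbol Hist1h2br. H4c17 shared 253 of its 268 runs with H4c18. How the aligner treated reads with several matches is not given in the sources used here, and how many reads of the cluster were lost or moved by this was not tested.

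Some stretches of the cluster held no input read. In segment A, 55 of 500 windows of 1 kb (11.0%) held no input read of either cell type, and in segment B 15 of 400 (3.75%), against 9.35% in the genome. The longest stretches without input were chr13:21889001-21912000 (23 kb), which held 27 CD4 and 27 CD8 H3K4me3 reads, and chr13:21923001-21939000 (16 kb), which held 10 and 6. Both lie in the widest gap between 2 domains of the cluster, chr13:21879601-21947400, so the lack of domains there does not show that the mark is absent.

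The cluster was among the most densely marked stretches of the genome. Its joined domains numbered 6.22 per 100 kb, 4.6 in segment A and 8.25 in segment B, against 0.626 per 100 kb over the genome. Of 26335 other windows of 500 kb, placed every 100 kb, 155 (0.589%) held as many as the 23 domains of segment A, and the median window held 1. No other window of 400 kb among 26358 held the 33 domains of segment B, and the fullest of them held 31. Between the segments, 1300 kb held 2 domains, 0.154 per 100 kb. The 500 kb before segment A held 16 domains and the 500 kb after segment B held 1.

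**Figure D1:**
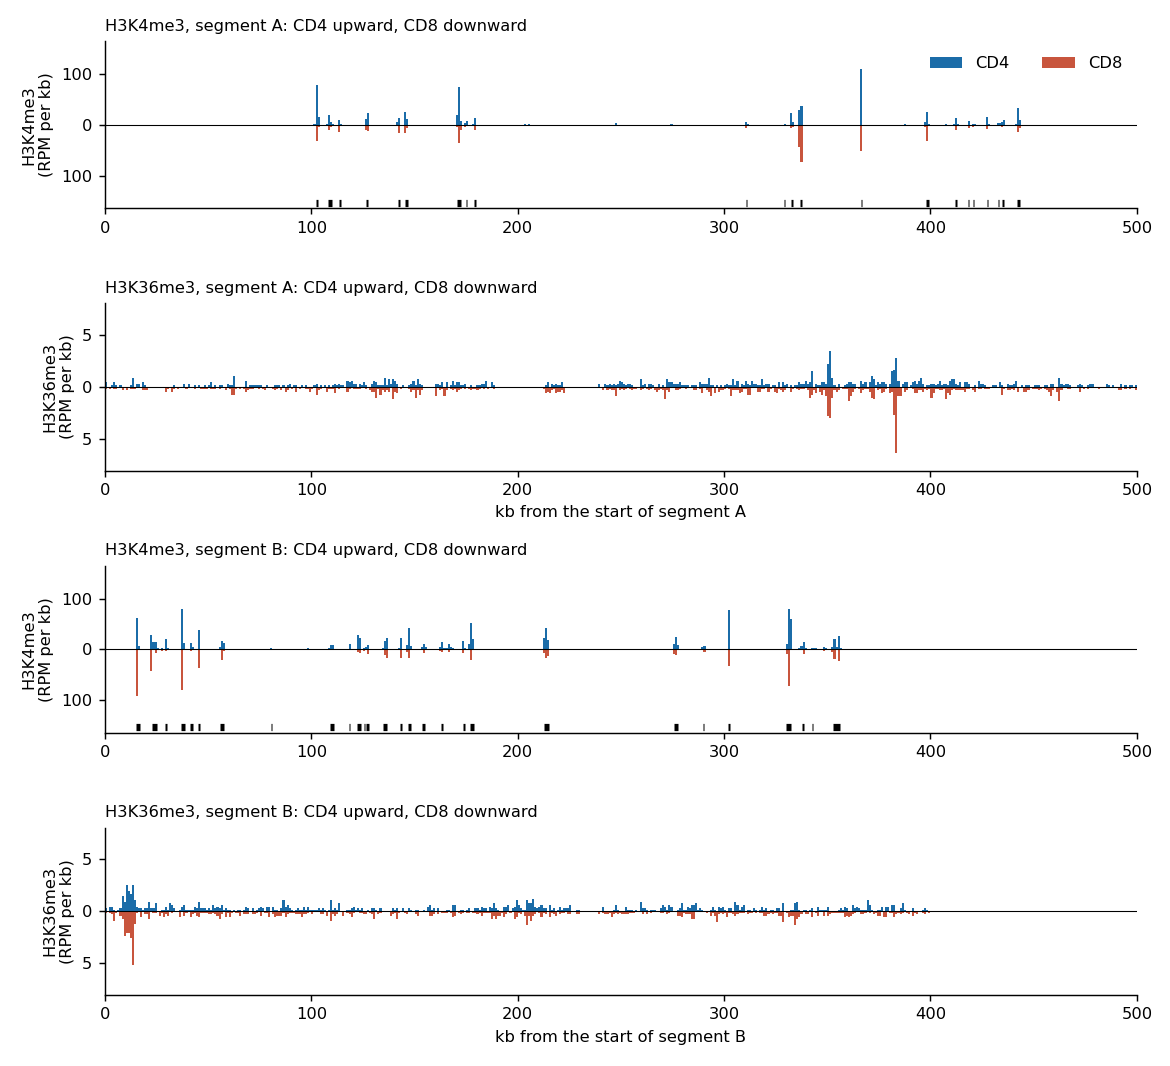
H3K4me3 and H3K36me3 RPM in 1 kb windows along segments A and B, against the distance in kb from the start of each segment, with CD4 drawn upward and CD8 downward and black marks for the 56 joined domains. H3K4me3 stands in narrow spikes of up to 111 RPM per kb, while H3K36me3 is low and even with 3 small peaks, the highest at 6.36 RPM per kb; segment B ends at 400 kb.

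Domains followed each other at short distances. The median distance between the centres of neighbouring joined domains was 6.2 kb (interval of the median 4.9 to 8.6) over 54 distances, against 40.1 kb in the genome. It was 7.25 kb (5.5 to 9.2) for CD4 domains and 5.5 kb (4.2 to 7.7) for CD8 domains, and these intervals overlap. Of the 54 distances, 37 (68.5%) were under 10 kb, against 17.2% in the genome. The shortest was 0.4 kb and the longest 68.3 kb.

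Most domains stood in a few trains, here runs whose neighbours lie at most 10 kb apart edge to edge. The longest train, chr13:23608801-23678600 in segment B, held 15 domains in 69.8 kb. Another of 7 domains spanned 42.6 kb at chr13:23515201-23557800, and the last of segment B held 6 in 26 kb at chr13:23830201-23856200. Segment A had 1 train of this size, 7 domains in 31.6 kb at chr13:22111801-22143400, and its other domains came in groups of 1 to 3. Together these 4 trains held 35 of the 56 joined domains. Beside the gap already named, the widest gaps were chr13:21947801-22010600 (62.8 kb) and chr13:23715001-23775600 (60.6 kb).

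**Figure D2:**
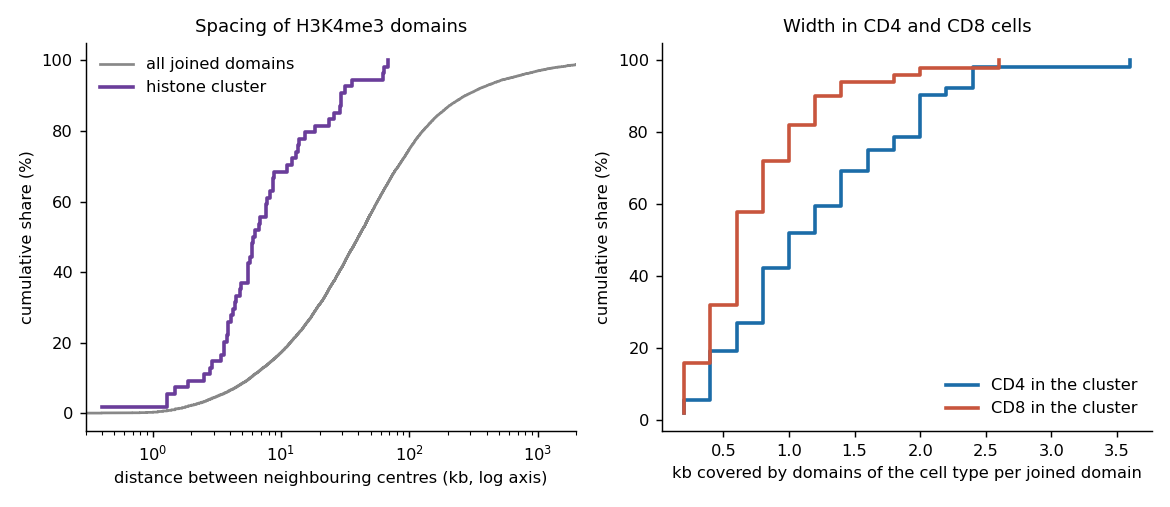
Left, the cumulative share of distances between neighbouring domain centres (kb, log axis) for the cluster and for all joined domains; right, the cumulative share of joined domains by the kb that CD4 or CD8 domains cover in them. The curve of the cluster lies left of that of the genome, with medians of 6.2 and 40.1 kb, and the CD8 curve lies left of the CD4 curve over most of its length.

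The domains were narrower in CD8 than in CD4 cells. Their median width was 600 bp (interval of the median 400 to 600) in CD8 and 1000 bp (800 to 1400) in CD4, while the median over the genome was 1000 bp in both. Of the 55 CD8 domains 36 (65.5%) were at most 600 bp wide, against 33.3% in the genome, and 1 (1.82%) reached 2 kb, against 9.97%. Of the 52 CD4 domains 14 (26.9%) were at most 600 bp wide, against 32.4%, and 11 (21.2%) reached 2 kb, against 12.9%. In the 46 joined domains found in both cell types, CD4 covered more in 34 (73.9%), the same in 10 and less in 2 (4.35%), with a median difference of 400 bp. Over the genome CD4 covered more in 48.1% and less in 15.9%, with a median difference of 0 bp.

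Width went with read number, and read numbers differed between the libraries. CD8 domains with 100 to under 300 reads had a median width of 600 bp both in the cluster and in the genome, and those with 20 to under 100 reads 400 bp in both. The cluster had more of the weak ones, 38.2% of its CD8 domains against 21% in the genome. CD4 domains with 300 to under 1000 reads were wider in the cluster, with a median of 1600 bp against 1200 bp, and those with 100 to under 300 reads measured 1000 against 800 bp. The strongest domains were narrower in the cluster, 1700 against 2000 bp in CD4 and 1200 against 1400 bp in CD8 for 1000 reads or more, and CD8 domains with 300 to under 1000 reads measured 900 against 1000 bp. Within each class from 100 reads up, the CD4 median was wider than the CD8 median, in the cluster and in the genome. With 20 to under 100 reads both cell types had a median of 400 bp. With 1 read kept per position both medians rose, to 1200 bp in CD4 and 800 bp in CD8.

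Nearly all reads of H3K4me3 in the cluster lay in its domains. They took 90.9% of the CD4 reads (90.5 to 91.3) and 96.7% of the CD8 reads (96.4 to 97.0) in 7.09% of the length, against 4.69% and 4.99% of the input reads. Inside the domains H3K4me3 stood at 115 times input (98.2 to 135) in CD4 and 68.8 times (59.2 to 80.5) in CD8, whereas over all domains of the genome the order was the other way, 132 in CD4 and 216 in CD8. The precipitations differed in background. At 2 to 5 kb from a domain in the cluster H3K4me3 lay at 0.267 of input in CD4 and at 0.0237 in CD8, and far from enriched regions of the genome they had 19.2% and 1.2%.

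Presence of a domain was mostly shared between the cell types, in the cluster about as often as in the genome. Of the 56 joined domains, 46 (82.1%) were found in both, 6 in CD4 only and 4 in CD8 only. Over the genome 13451 of 16542 were found in both, 11.9% in CD4 only and 6.78% in CD8 only. In 5 joined domains a CD4 domain covered several CD8 domains, and in 0 the reverse. A domain of 1 cell type still held reads of the other, as the values below show, so the word only refers to the rule and not to an absence of the mark.

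The amount of H3K4me3 in the cluster was higher in the CD4 library relative to the rest of the genome. The 56 joined domains together held 19250 reads in CD4 and 14292 in CD8, a 2.07-fold difference (2.03 to 2.12) after centring on the genome, where the median log2 ratio over domains found in both cell types was set to 0. The log2 ratio was 1.05 (1.02 to 1.08) for the cluster, and the fold was 2.12 (2.06 to 2.18) in segment B, close to the whole. Scaled to total reads, which lowers every log2 ratio by 0.44, the difference was 1.52-fold (1.49 to 1.55). The input of the same domains was 159 reads in CD4 and 171 in CD8.

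Of the 56 joined domains, 31 (55.4%) were at least 2-fold higher in CD4 with an interval off 1 at a level stricter than 95%, and 0 were higher in CD8. Over the genome percent called was 21.5% in the CD4 direction and 4.84% in the CD8 direction. Of the 31 domains, 25 were among the 46 found in both cell types. The other 6 were found in CD4 only, so they entered the list through the cell type in which they are high. The shares of the genome also include domains found in 1 cell type. Segment A had 12 such domains of 23 and segment B 19 of 33. The median log2 ratio was 1.16 (quartiles 0.55 and 1.61), against 0.06 over all joined domains. It lay above 0 in 48 domains and below 0 in 8. These counts compare 1 CD4 with 1 CD8 library.

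Calls were spread along the cluster. Of the 31 domains, 24 were between 2-fold and 4-fold higher in CD4, from 2.06-fold upward, and 7 were above 4-fold. The 4 trains held 18 of them among 35 domains, and the 21 domains outside held 13.

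The trains differed in how far CD4 exceeded CD8. In the longest train, chr13:23608801-23678600, the 15 domains held 7 to 839 CD4 reads (median 177) and 3 to 342 CD8 reads (median 109). Summed, 3735 against 1977 reads made a 2.9-fold difference, and 10 of the 15 were called. The first train of segment B, chr13:23515201-23557800, held 168 to 985 CD4 reads (median 398) and 33 to 1140 CD8 reads (median 454) per domain. Its sums of 3423 and 3613 reads gave 1.46-fold, and 2 of 7 were called, so the more heavily marked train was the more even one. The train of segment A, chr13:22111801-22143400, held 19 to 452 CD4 and 31 to 225 CD8 reads per domain and was 2.53-fold higher in CD4 over its sums of 1062 and 645, with 3 of 7 called. The last train, chr13:23830201-23856200, held 6 to 1586 and 20 to 1012 reads and was 2.06-fold higher over 2472 and 1841 reads, with 3 of 6 called.

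Outside the 4 trains, 7 of the 10 domains that stood alone were called higher in CD4, and 6 of the 11 that stood in groups of 2 or 3. The domain outside with the most reads, chr13:22036601-22037800, was not among them, nor was chr13:22097601-22099200 with 347 CD4 and 460 CD8 reads. Those named next were picked with their values known. The domain at chr13:22066201-22067000 in segment A had 1182 CD4 and 624 CD8 reads, a ratio of 2.91 (2.64 to 3.21). At the start of segment A, chr13:21802001-21803400 had 1023 against 430 reads, a ratio of 3.66 (3.26 to 4.1). In segment B, chr13:23802001-23802800 had 837 and 412 reads, a ratio of 3.12 (2.77 to 3.52). Within the longest train, chr13:23676801-23678600 at its end had 839 against 306 reads, a ratio of 4.21 (3.69 to 4.82), and chr13:23622001-23624000 had 538 against 162, a ratio of 5.1 (4.27 to 6.12). All 5 held far more reads than the weakest called domain, chr13:23580401-23580800, with 27 and 7.

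The CD4 count moved with the scaling, while its direction did not. Scaled to total reads, 20 of the 56 (35.7%) were higher in CD4, against 14.7% of the genome, and the genome then had 16.1% higher in CD8 and the cluster 0. With a centre that followed the read count, chosen after seeing the data, 25 (44.6%) were higher in CD4, against 16.9%, and 0 in CD8, against 7.71%. With 1 read per position in the same domains, 16 (28.6%) were higher in CD4, against 12.3%, and 0 in CD8, against 3.63%. Distinct positions made up 45.3% of the CD4 and 39.1% of the CD8 reads in the domains of the cluster, and 54.4% and 31.4% of the whole libraries. With the background of each library taken off, 31 were still higher in CD4 and the summed log2 ratio was 1.05. This setting could change little, because the reads taken off scale with the input. No domain of the cluster held more than 8 CD4 or 11 CD8 input reads. The part of repeated reads in the difference was not tested beyond these settings.

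**Figure D3:**
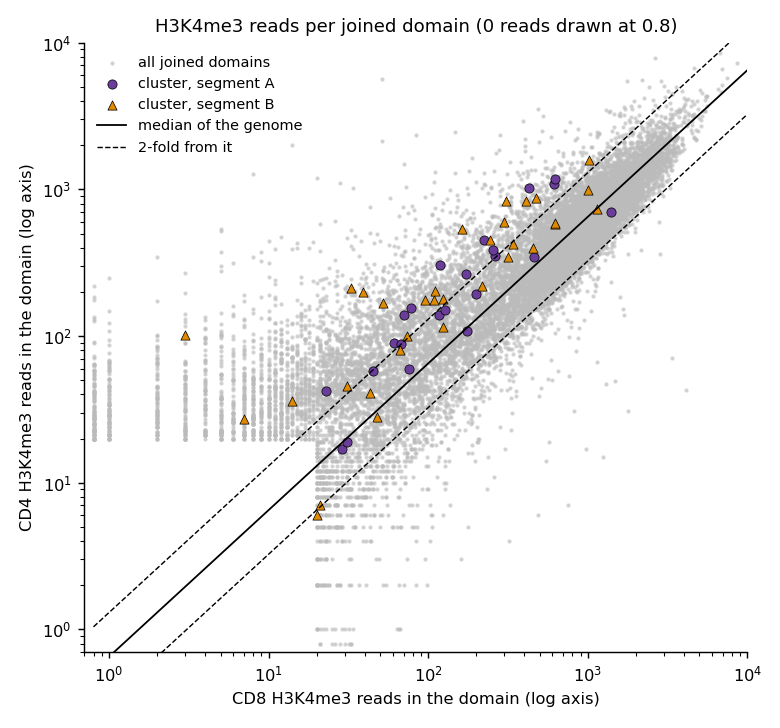
H3K4me3 reads of each joined domain in CD8 (x axis) and CD4 (y axis), both log axes, with all joined domains of the genome in grey, segment A as circles and segment B as triangles, the solid line at the genome median and dashed lines 2-fold from it. Of the 56 domains of the cluster 48 lie above the solid line, over the whole range of read numbers.

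The difference did not follow the read number in the way the genome did. Among domains with 20 to under 200 reads, both cell types summed, 7 of 17 in the cluster (41.2%) and 46.7% in the genome were higher in CD4. Among those with 200 to under 400 reads the shares were 64.3% and 32.0%, and with 400 to under 800 reads 70.0% and 18.4%. Among those with 800 to under 1600 reads they were 55.6% and 7.62%, and with 1600 reads or more 3 of 6 (50%) against 4.9%. In the weakest class the share lay near the background of that class, and in the other 4 classes it lay above it.

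**Figure D4:**
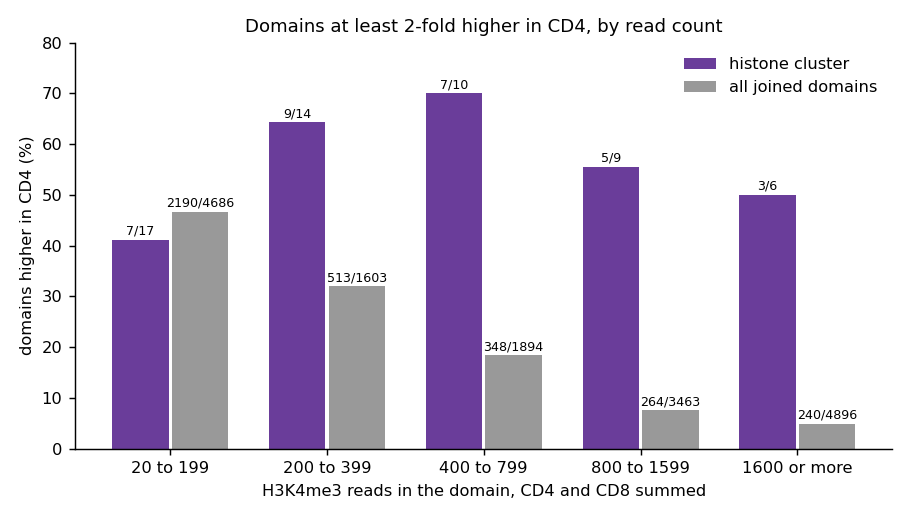
Share of joined domains (percent) that were at least 2-fold higher in CD4, by the sum of CD4 and CD8 H3K4me3 reads, for the cluster and for all joined domains, with the counts above the bars. The bars of the genome fall from 46.7% to 4.9% while those of the cluster stay between 41.2% and 70.0%.

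The most heavily marked domains were not alike in their balance. The domain at chr13:23830201-23832600, which opens the last train of segment B, had the most CD4 reads of the cluster, 1586 against 1012 in CD8 and inputs of 4 and 5. It was 2.41-fold higher in CD4 (2.22 to 2.61), with a log2 ratio of 1.27 that was 0.64 at 1 read per position. The domain at chr13:22036601-22037800 in segment A went the other way, with 705 CD4 and 1395 CD8 reads, 1.29-fold higher in CD8 (1.18 to 1.41), the lowest log2 ratio of those with 50 or more reads at -0.36. At chr13:23515201-23516800 the libraries had 731 and 1140 reads, level after centring at a log2 ratio of -0.02 (-0.16 to 0.11), which was 0.26 at 1 read per position. At chr13:23537001-23538800 they had 985 and 996 reads, a 1.52-fold difference (1.39 to 1.66). Both of the latter belong to the first train of segment B.

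The widest domains lay in segment B, where that at chr13:23830201-23832600 measured 2400 bp. The domain at chr13:23852601-23856200 was 3600 bp wide with 589 CD4 and 624 CD8 reads, 1.45-fold higher in CD4 (1.29 to 1.63), and 1 CD4 domain there covered 2 CD8 domains. At chr13:23522601-23525000, 2400 bp wide, the counts were 581 and 624, a 1.43-fold difference (1.28 to 1.6), again with 1 CD4 and 2 CD8 domains. The domain at chr13:23712601-23715000, also of 2400 bp, stood 34.0 kb from its nearest neighbour, and its 869 CD4 and 472 CD8 reads made a 2.83-fold difference (2.53 to 3.17). At 1 read per position its log2 ratio was 0.94, under the 2-fold limit.

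The highest ratios belonged to domains of moderate size in segment B. The domain at chr13:23618401-23618800 had 101 CD4 and 3 CD8 reads, with inputs of 5 and 4, a ratio of 51.7 (17.2 to 255) that rests on the 3 CD8 reads. At chr13:23529201-23530200 there were 213 and 33 reads, a 9.92-fold difference (6.85 to 14.8), and at chr13:23608801-23611000 there were 201 and 39 reads, a 7.92-fold difference (5.6 to 11.5). All 3 were found in CD4 only, so a high CD4 over CD8 ratio goes with how they entered the list. The latter pair held more than the minimum of 20 reads in CD8 as well, but not within 1 run of enriched bins. With 1 read per position their log2 ratios were 4.16, 2.64 and 2.24.

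Domains found in 1 cell type also included weak ones on both sides of the rule. The isolated domain at chr13:21947401-21947800, between the 2 widest gaps of segment A and 62.8 kb from the nearest, held 42 CD4 reads and 23 CD8 reads, a ratio of 2.81 (1.65 to 4.89). At chr13:23667601-23667800 there were 36 and 14 reads, a 3.95-fold difference (2.08 to 7.93), and with 1 read per position 15 and 12. At chr13:22120801-22121000, found in CD8 only, there were 19 CD4 and 31 CD8 reads, 1.06-fold apart after centring (0.581 to 1.99). Also near the minimum, chr13:23625601-23626200 had 28 and 48 reads, 1.12-fold apart after centring (0.686 to 1.85). Neither of the latter pair differed beyond counting error. The former pair passed the rule, but with 1 read per position their log2 ratios of 0.95 and 0.45 did not. The domain at chr13:23667601-23667800 lay 200 bp from chr13:23668001-23668200, found in CD8 only with 7 CD4 and 21 CD8 reads. Domains of the 2 cell types were joined only where they overlap, so this short stretch is counted on both sides.

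Many wide domains had a dip inside, in the cluster as in the genome. At active promoters the nucleosomes on both sides of the start carry the mark, while the start itself is often free of nucleosomes. A valley was counted in a domain of 1 kb or wider where an inner 200 bp bin held at most 50% of the lower of the peaks on its sides, with the highest bin at 20 reads or more. Valleys were found in 18 of 30 such domains in CD4 (60.0%, genome 51.3%) and in 12 of 30 in CD8 (40%, genome 48.1%), 11 of them in both. The width was that of the joined domain, so the part covered in CD8 could be narrower than 1 kb. At chr13:23529201-23530200 and chr13:23608801-23611000 the highest CD8 bin held 14 and 15 reads, too few for a valley to be counted. At chr13:21802001-21803400, the first domain of the cluster, CD4 reads reached 648 in 1 bin and 129 on the other side of a bin with 0 reads, and CD8 reads 252 and 33 around a bin with 1 read, at the same place. At chr13:21808001-21810000 the valley bin was at 0 in both cell types. Of the 11 domains with a valley in both cell types, 4 (36.4%) had it in the same bin, these examples among them, against 68.7% in the genome. At most 1 bin apart lay 5 of the 11, against 2943 of 3638 in the genome. Only 1 valley bin per domain and cell type was compared, so other dips of a domain could still coincide. The domains given as examples held 6 and 1 input reads in CD4 and 4 and 5 in CD8. Input this thin cannot tell a bin free of the mark from one where 33 bp reads cannot be placed. Valleys were not counted at 1 read per position, and chr13:21802001-21803400 held 290 distinct positions among 1023 CD4 reads.

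H3K36me3 over the domains of the cluster did not exceed input scaled to total reads in either cell type. Inside the joined domains it stood at 0.903 times input in CD4 (0.693 to 1.17, 95 against 159 reads) and 0.855 in CD8 (0.66 to 1.1, 99 against 171 reads), and over all domains of the genome at 1.08 and 1.20. Far from enriched regions the level was 31.7% of input in CD4 and 32.5% in CD8. Within 1 kb of a domain of the cluster it was 0.48 and 0.601, so the ratio was higher inside the domains, with overlapping intervals in CD8. Of the 56 domains 21 (37.5%) held no H3K36me3 read in CD4 and 17 (30.4%) held none in CD8, against 32.1% and 41.9% in the genome, so empty domains were about as common as elsewhere in CD4 and less so in CD8. The most reads in any domain of the cluster was 8 in each cell type. At about 1 kb per domain this depth cannot show the mark in a single domain. At chr13:23608801-23611000, for example, there were 8 CD4 and 8 CD8 reads with inputs of 3 and 1.

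Around the domains H3K36me3 did not rise as it did elsewhere. In the genome it climbed from 1.02 (CD4) and 1.07 (CD8) within 1 kb of a domain to 2.18 and 2.20 at 5 to 10 kb. In the cluster it was 0.48 (0.385 to 0.594) and 0.601 (0.491 to 0.732) within 1 kb, 0.668 and 0.818 at 1 to 2 kb, and 0.741 (0.647 to 0.847) and 0.733 (0.64 to 0.837) at 2 to 5 kb. At 5 to 10 kb it was 0.633 and 0.616 and beyond 10 kb 0.542 and 0.597. All these intervals lie below 1, the level of input scaled to total reads, and above the 31.7% and 32.5% measured far from enriched regions. Many distances of 2 kb or more in the cluster lie between 2 domains. Whether these bins hold genes or the DNA between them was not tested, as no domain was assigned to a gene.

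**Figure D5:**
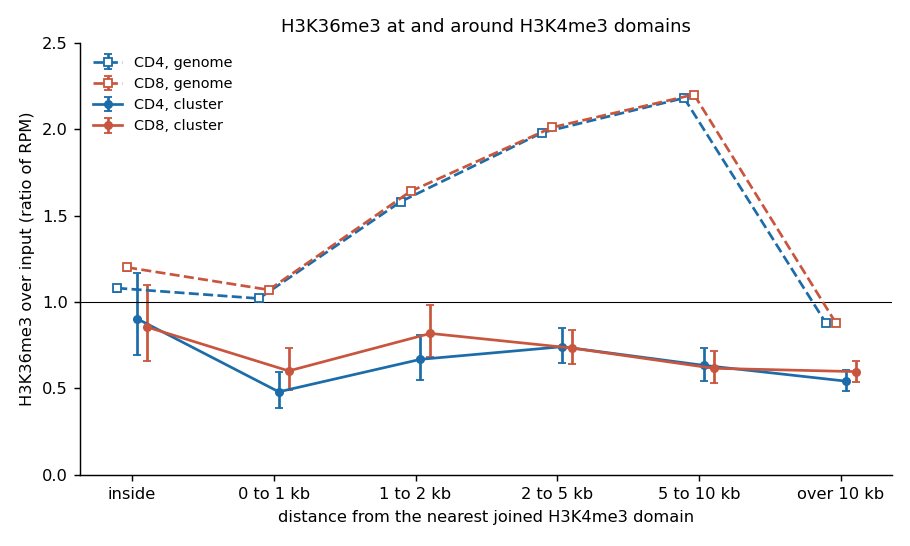
H3K36me3 over input (ratio of RPM, linear axis) inside joined H3K4me3 domains and in 5 classes of distance from the nearest one, for the cluster (filled points with exact 95% intervals) and the genome (open squares, dashed). The genome rises to 2.18 in CD4 and 2.20 in CD8 at 5 to 10 kb, while in the cluster each point lies below 1.

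Over whole segments H3K36me3 stood at 0.596 (CD4) and 0.669 (CD8) of input in segment A and at 0.647 and 0.653 in segment B. It was 0.425 and 0.491 between the segments, 0.338 and 0.319 in the 500 kb after segment B, and 1.31 and 1.52 in the 500 kb before segment A. The cluster thus lay between its poorer and richer neighbours. Windows of 10 kb with at least 20 reads and 2 times input numbered 1 of 90 in CD4 (1.11%) and 2 of 90 in CD8 (2.22%), against 10.3% and 10.2% of the genome. The median window, however, stood at 0.522 and 0.575 of input in the cluster and at 0.378 and 0.388 in the genome, so the cluster held few enriched windows but a typical window above that of the genome.

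The 2 enriched windows each had a setting of their own. At chr13:23510001-23520000, where the first train of segment B begins, there were 75 CD4 and 95 CD8 H3K36me3 reads, 3.06 and 3.42 times input. At chr13:22080001-22090000, in a gap between domains of segment A, there were 54 and 85 reads, 1.7 and 2.73 times input, so only the CD8 value passed 2. Neither window was called different between the cell types, where percent called over the genome was 2.08% in the CD4 and 0.84% in the CD8 direction. The 2 windows were named after their values were seen.

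Over the whole segments H3K36me3 was close to level between the cell types. The cluster held 1391 CD4 and 1536 CD8 reads, a centred log2 ratio of -0.10 (-0.21 to 0.01). Segment A held 697 and 803 reads and lay at -0.16 (-0.31 to -0.01), just beyond counting error, and segment B held 694 and 733 reads and lay at -0.04. The H3K4me3 log2 ratio over the domains was 1.05, and the difference between the marks was not tested.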

How the data were processed

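The deposited files hold the start and end of aligned reads, 1 per line, 33 bp wide, with no strand or score, so every value here is a count of reads made from the positions the authors deposited. Per the submitters' processing notes the build is mm9. Which aligner was used, and whether repeated reads were removed, is not given in the sources used here. Printed positions are 1-based and could be off by 1 bp if the deposited starts were not counted from 0.

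The libraries held 10784658 (CD4) and 12136610 (CD8) H3K4me3 reads, 6844546 and 6860729 H3K36me3 reads, and 10237817 and 10030065 input reads. Autosomes, X and Y held 98.3% to 99.8% of each library, and these reads were counted by midpoint. The domain and difference rules were tested on simulated data with flat input and independently drawn reads. Repeated reads and unequal backgrounds of the libraries were not simulated, so the simulation does not bear on them. Medians have order-statistic intervals. Levels far from enrichment come from 892185 windows of 2 kb.

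Named domains were the 4 with most H3K4me3 reads, the 3 widest, the 3 highest and 3 lowest CD4 over CD8 ratios among those with 50 reads or more, the 2 farthest from a neighbour and up to 6 found in 1 cell type. Those richest in H3K36me3 needed 10 reads in each cell type, which 0 had. Domains in the sentences on valleys were picked with their values known. Members and lists were chosen with earlier results of these data known. Alternatives were other folds, gaps, read minimums, scalings, windows, pooled inputs, thinning, background subtraction and 1 read per position. Software was SciPy 1.17.1, pandas 2.3.3 and NumPy 2.4.6 under Python 3.11.15, and matplotlib 3.10.9.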

Additional observations from a re-analysis of the deposited data

How the results depend on the processing

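Over the alternatives run, the cluster held 46 to 52 CD4 and 44 to 55 CD8 domains, and the summed H3K4me3 log2 ratio stayed above 0, between 0.60 and 1.08. With 1 read per position the median CD8 width was 800 bp in place of 600, and the median CD4 width 1200 bp in place of 1000. In that setting 16 domains were higher in CD4 in place of 31. Scaled to total reads 20 were, and at 3-fold or more 15 were. At 50 reads or more per domain the median CD8 spacing was 7.9 kb in place of 5.5. H3K36me3 in domains extended by 1 kb was 0.61 of input in CD4 and 0.684 in CD8, now below 1 beyond counting error. At 3 times input, 1 window was enriched in CD8, and with windows of 5 kb 3 were in CD4. The causes were not tested.

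Of the named domains, chr13:21947401-21947800 lost its call with 1 read per position, total reads or the centre that followed the read count, chr13:23667601-23667800 with the first and the last of these, chr13:23830201-23832600 with the first and second, and chr13:23712601-23715000 with the first. No called domain changed direction under the alternatives run. Of those not called, chr13:23515201-23516800 went from -0.02 (log2) to 0.26 with 1 read per position and 0.10 with the read-count centre, and chr13:23625601-23626200 from -0.16 to 0.07 with 1 read per position. No paired analysis was possible because each group has 1 library. Depth limits H3K36me3 to sums over many domains.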
